A study of Mus musculus with 4 samples.

Results

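Transcripts of 38 genes of the vacuolar ATPase and the lysosome, listed by symbol, were looked up in ventricles of mice at postnatal day 14, and 36 of the 38 were found among the 36814 rows of the deposited table. They comprise 15 pump subunits (8 of V1 and 7 of V0), 2 accessory proteins of the pump, 8 cathepsins, 5 glycosidases, 2 soluble cofactors and 4 membrane proteins. The listed symbols Tfeb and Tfe3 had no row of that name, and both genes are described from rows under their older symbols, Tcfeb and Tcfe3, apart from the 36. Each of the 36 symbols had 1 row, and all 36 were tested by the authors.

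The lysosome breaks down proteins, glycolipids, glycogen and cholesterol esters, and its enzymes need an acid interior. Acid is supplied by the vacuolar ATPase, a rotary proton pump in which a cytosolic V1 domain splits ATP and a membrane-embedded V0 domain carries the protons. In heart muscle the lysosome takes up damaged mitochondria and glycogen, and inherited loss of single lysosomal genes such as Lamp2, Gaa or Gla causes cardiomyopathy in humans. The transcription factors TFEB and TFE3 bind a short palindrome in the promoters of many pump and lysosomal genes.

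RNA came from 2 Hnrnpu mutants and 2 wild type mice, with 1 male and 1 female in each group, on a mixed background of C57BL/6 and 129 S4. The mutants carry a conditional knockout allele of Hnrnpu and the Ckmm-Cre transgene, whose muscle creatine kinase promoter acts in heart and skeletal muscle, so other cells of the ventricle are not targeted. Hnrnpu, which encodes the nuclear RNA-binding protein hnRNP U, was listed at 15.2 RPKM in mutant and 32.7 RPKM in control ventricles (p = 0.0613, adjusted p = 0.438 in the authors' deposited table). The row Gm16586 overlaps Hnrnpu on the same strand and had a mean of 18.5 RPKM over the 2 groups. How reads of the 2 rows were divided is not given in the sources used here. RPKM by its name scales the reads of a gene by its transcript length and by all mapped reads. The ratio of the 2 group values was within 0.971% of the deposited fold in rows at 1 RPKM or more in both groups. Levels and folds thus share a scaling, and whether it used all mapped reads was not checked. For every gene the authors' deposited table holds a single RPKM for each group beside a single test, so levels below carry no spread of their own, and values of single animals were not analysed here. The labels call the controls wild type and do not say whether they carry Cre or a floxed allele, nor whether the animals were littermates.

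Of the 36 genes, 31 were listed higher in mutant than in control. The other 5 were Atp6v0a1, Atp6v0a2, Atp6v0c and Npc1, and Atp6v1g1 at 0.995-fold in the authors' deposited table. The median log2 fold change, mutant over control, was 0.74, against 0.08 over the 11292 tested rows with a mean of at least 1 RPKM, of which 54.6% were listed higher in mutant. Summed over the 36 genes, the level was 933.3 RPKM in mutant and 481.8 RPKM in control ventricles. Cathepsin D alone made up 38.7% of that difference.

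A gene was called when the authors' deposited adjusted p-value was below 0.05. By that rule 1 of the 36 genes rose, Hexa, and none fell. This is 2.78% of the members, close to the 3.51% of all 24454 tested rows that were called in either direction and the 2.03% that were called higher in mutant. At an unadjusted p below 0.05, 8 of the 36 (22.2%) were higher in mutant and 0 were lower, against 6.4% of all tested rows that were higher at that level. Among the 33 members with a mean of at least 1 RPKM it was 7, and 9.71% of all rows at that level were higher with an unadjusted p below 0.05. These p-values are not independent evidence for the list, since its members were chosen with earlier results known.

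Only large changes were called. Among rows averaging 1 RPKM or more the smallest called change was 3.03-fold in the authors' deposited table, and 9 of the 33 members at that level (27.3%) were listed at 2-fold or more, against 11.4% of such rows, while 0 were listed at 0.5-fold or less, against 8.48%. Atp6v0d2 and Gla, below that level, were also listed at 2-fold or more. An error can be read back from each deposited fold and p under a normal approximation. It lay between 0.50 and 1.18 in log2 units for the 29 members whose log2 fold change was at least 0.3 in size, and the 95% interval lay above 1-fold for 8 of them, the same condition as an unadjusted p below 0.05. A gene without a call below is therefore not shown to be unchanged.

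**Figure D1:**
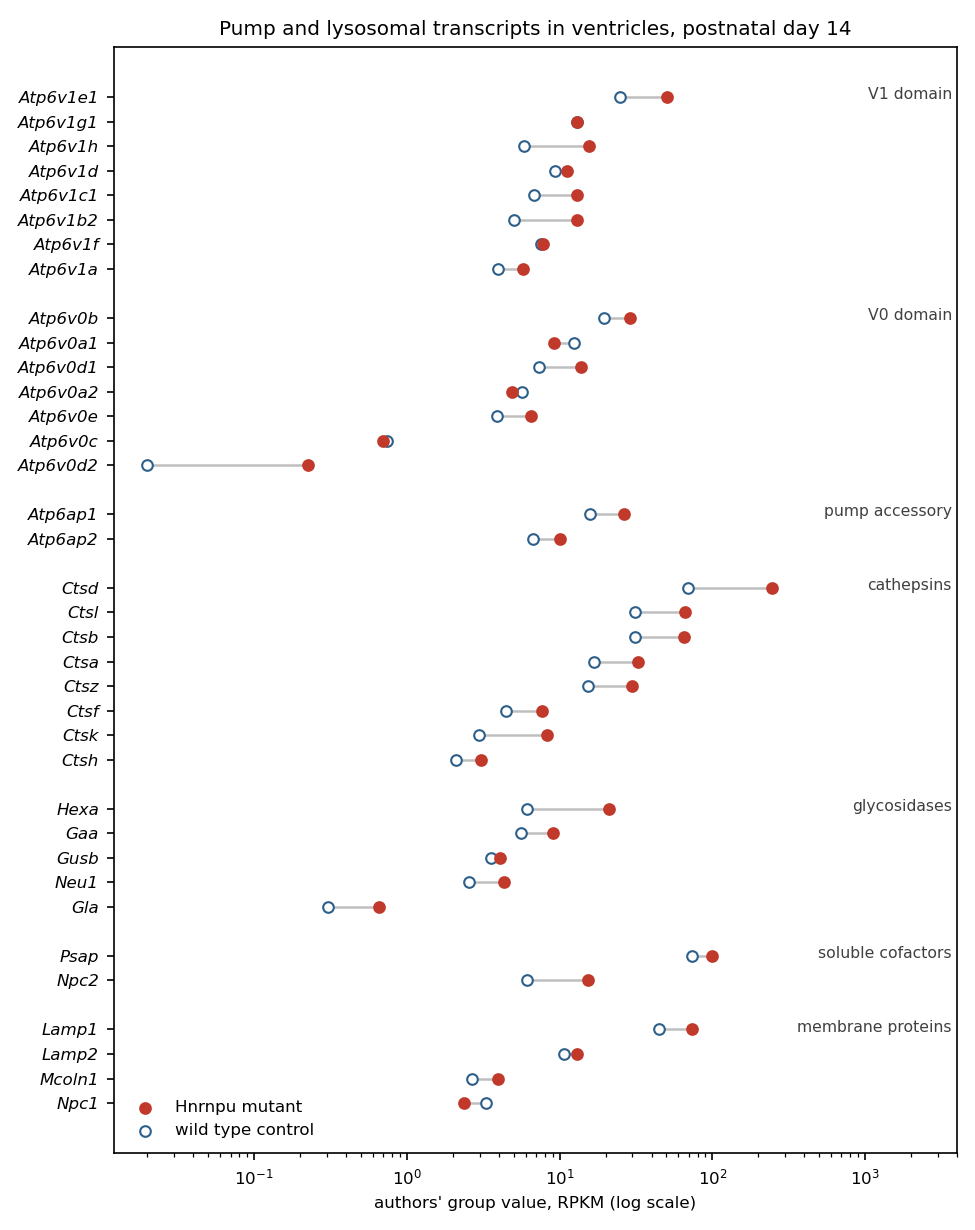
Level of each of the 36 genes in RPKM (log scale), with filled points for the Hnrnpu mutant and open points for the wild type control, 1 value per group by the authors, ordered by role and by mean level. All 13 hydrolases (cathepsins and glycosidases) have the mutant point to the right, and Atp6v0a1, Atp6v0a2, Atp6v0c and Npc1 have it to the left, and the points of Atp6v1g1 coincide.

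Genes of the V1 domain lay between level and 2.66-fold in the authors' deposited table, with 7 of 8 listed higher in mutant. Atp6v1h, the regulatory subunit H, was listed at 15.5 RPKM in mutant and 5.85 RPKM in control (2.66-fold, implied 95% interval from 1.34 to 5.28, p = 0.00533, adjusted p = 0.106 in the authors' deposited table). Atp6v1b2, which shares the ATP-splitting ring with subunit A, was listed at 12.9 RPKM in mutant and 5.06 RPKM in control (2.56-fold in the authors' deposited table, interval from 1.26 to 5.17, p = 0.00902, adjusted p = 0.149). Atp6v1e1, a subunit of the outer stalks and the most abundant V1 transcript, was listed at 50.3 RPKM in mutant and 24.8 RPKM in control (2.03-fold, p = 0.0483, adjusted p = 0.390 in the authors' deposited table). None of the 3 was called, although each had an unadjusted p below 0.05.

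The other 5 V1 genes had smaller differences. Atp6v1c1, a stalk subunit that leaves the pump when it disassembles, was listed at 13 RPKM in mutant and 6.81 RPKM in control, and Atp6v1a, the catalytic subunit, at 5.73 RPKM in mutant and 3.94 RPKM in control. Atp6v1d, of the central rotor, stood at 11.2 RPKM in mutant and 9.35 RPKM in control. The rotor subunit Atp6v1f was close to level at 7.73 RPKM in mutant and 7.58 RPKM in control, and the stalk subunit Atp6v1g1 at 13 RPKM in both (p = 0.954, adjusted p = 1 in the authors' deposited table). For Atp6v1g1, 19.2% of the stretches of 50 bases in its transcripts also occur in transcripts of other genes, and the pseudogene Gm13453, which holds most of them, was listed at 24.1 RPKM in mutant and 23.1 RPKM in control, so the level of Atp6v1g1 is uncertain. Over the 8 genes the median log2 fold change was 0.74, and the summed V1 level was 129.4 RPKM in mutant and 76.39 RPKM in control.

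In the V0 domain 4 of 7 genes were listed higher in mutant and 3 lower, with a median log2 fold change of 0.56. The 3 lower were 2 isoforms of subunit a, neither of them called, and Atp6v0c, whose level is not taken as a measure below. Atp6v0d1, which couples the rotor to V1, was listed at 13.7 RPKM in mutant and 7.34 RPKM in control (1.86-fold, p = 0.0751, adjusted p = 0.486 in the authors' deposited table). Atp6v0e, a small subunit, was listed at 6.46 RPKM in mutant and 3.88 RPKM in control. Atp6v0b, a ring subunit, was listed at 28.9 RPKM in mutant and 19.6 RPKM in control (1.48-fold, p = 0.286, adjusted p = 0.828 in the authors' deposited table). The row Gm12841 on its other strand stood at 38.9 RPKM in mutant and 19.1 RPKM in control. The sources used here do not say whether strand was used in counting, so reads of Atp6v0b and Gm12841 cannot be told apart.

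Subunit a forms the channels by which protons enter and leave the ring and directs the pump to its membrane, and its 3 more abundant isoforms were listed lower in mutant. Atp6v0a1 was listed at 9.16 RPKM in mutant and 12.4 RPKM in control (0.740-fold in the authors' deposited table, implied 95% interval from 0.354 to 1.54, p = 0.422, adjusted p = 0.948). Atp6v0a2 stood at 4.86 RPKM in mutant and 5.64 RPKM in control. Tcirg1, which codes for isoform a3 and is not among the 36, was listed at 6.31 RPKM in mutant and 8.82 RPKM in control (0.716-fold in the authors' deposited table, implied 95% interval from 0.378 to 1.35, p = 0.304). None of the 3 was called.

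Atp6v0c codes for the main proton-binding ring subunit, of which each pump carries several copies, yet it was listed at only 0.693 RPKM in mutant and 0.738 RPKM in control. The pseudogene Atp6v0c-ps2 shares sequence with it, and 10.8% of its 50-base stretches occur in other genes. How the authors treated reads with several matches is not given in the sources used here, and Gapdh, an abundant enzyme of glycolysis with many pseudogenes, was likewise listed at only 1.64 RPKM in mutant and 1.33 RPKM in control. Why the level of Atp6v0c is so low was not tested, and a larger share, 32.4% for Ctsd, went with 244 RPKM in mutant. As the level of Atp6v0c is uncertain, it is not taken as a measure of its transcript.

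Atp6v0d2, the isoform of subunit d known from osteoclasts, macrophages and kidney, was listed at 0.224 RPKM in mutant and 0.0200 RPKM in control (11.2-fold in the authors' deposited table, implied 95% interval from 2.26 to 55.6, p = 0.00313, adjusted p = 0.0737). With the worth of 1 read taken from the smallest steps among short RNA genes, which assumes scaling by mapped reads, and the longest transcript of a later annotation, the control value stands for about 3 reads in both libraries together and the mutant value for about 87. A gene model that joins the exons of several transcripts would give somewhat more. Its fold therefore rests on a handful of control reads. In mutant 1 read was worth less RPKM than in control, so a low transcript gives more reads there. In mutant ventricles Atp6v0d2 made up 1.61% of the summed level of both d isoforms, against 0.272% in control.

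Isoforms of pump subunits outside the 36 held the 2 pump genes that were called. They came from a list of isoform and accessory genes with 8 tested rows, where 2.03% of all tested rows were called higher in mutant. Atp6v0e2 (chromosome 6, 48487568 to 48491797 in mm9), the second isoform of subunit e, rose to 9.03 RPKM in mutant, against 0.737 RPKM in control, 12.3-fold in the authors' deposited table (implied 95% interval from 5.65 to 26.6, adjusted p = 9.68e-08). It made up 58.3% of the summed level of both e isoforms in mutant and 16% in control, so the isoform listed lower than Atp6v0e in control was listed above it in mutant. The summed level of the e isoforms was 15.5 RPKM in mutant and 4.62 RPKM in control. Atp6v0a4, the a isoform known from kidney, rose 21.6-fold in the authors' deposited table (interval from 5.80 to 80.4, adjusted p = 0.000508), but its level was 0.349 RPKM in mutant and 0.0162 RPKM in control, the last worth about 3.1 reads by its longest transcript, and it made up 1.69% of the a isoforms in mutant and 0.0603% in control.

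Of the other 7 isoform and accessory genes in that list 6 were tested by the authors, none was called, and 0 of the 6 had an unadjusted p below 0.05. Atp6v1g2 was listed at 1.57 RPKM in mutant and 1.67 RPKM in control, and made up 10.8% of subunit G in mutant and 11.4% in control. Atp6v1b1, Atp6v1c2 and Atp6v1e2 were listed at 0.0463 RPKM or less in both groups, each at 0 in 1 of them, and Atp6v1g3, the untested gene, was at 0 in both. Atp6ap1l was listed at 0.00562 RPKM in mutant and 0.0664 RPKM in control.

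**Figure D2:**
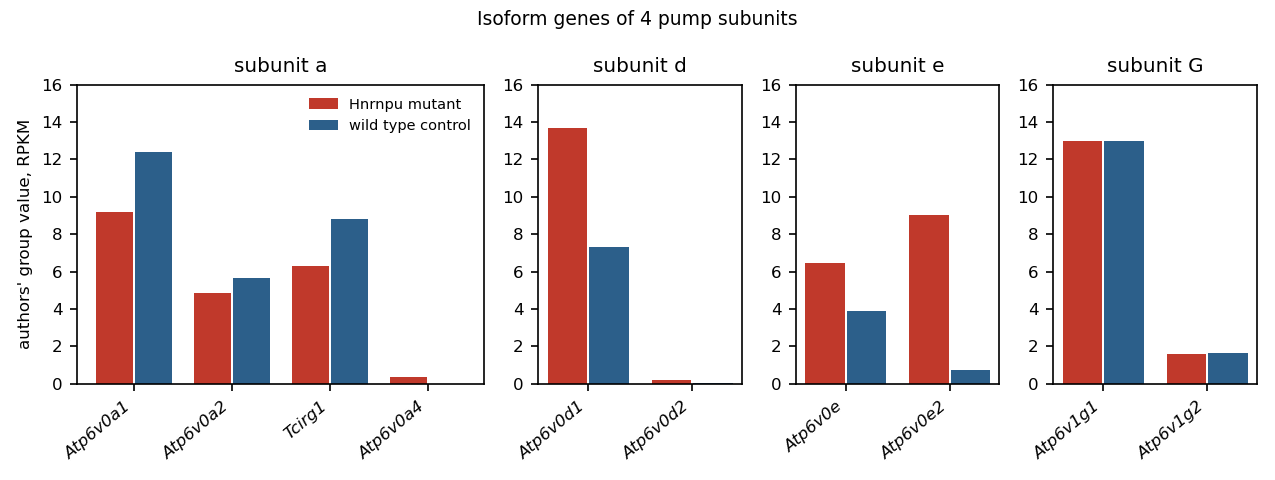
Levels in RPKM of the isoform genes of pump subunits a, d, e and G, with the Hnrnpu mutant bar left of the wild type control bar, 1 value per group by the authors and no error bars. Atp6v0e2 stands at 9.03 in mutant and 0.737 in control, whereas Atp6v0a1, Atp6v0a2 and Tcirg1 stand lower in mutant.

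Both accessory proteins of the pump were listed higher in mutant without a call. Atp6ap1, which guides the pump through assembly and sorting, was listed at 26.5 RPKM in mutant and 15.9 RPKM in control (1.67-fold, p = 0.164, adjusted p = 0.673 in the authors' deposited table). Atp6ap2, the prorenin receptor, was listed at 10.1 RPKM in mutant and 6.65 RPKM in control (1.52-fold, p = 0.234, adjusted p = 0.771 in the authors' deposited table). Of 12 assembly factors and partners of the pump with a tested row, 6 were listed higher and 6 lower in mutant. By the authors' test none was called and 0 had an unadjusted p below 0.05, and their summed level was 27.84 RPKM in mutant and 27.68 RPKM in control.

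Cathepsins, the proteases of the lysosome, had the highest median of the 7 roles. All 8 members of this class were listed higher in mutant, with log2 fold changes from 0.54 to 1.82 and a median of 1.01. Ctsd, the aspartic protease cathepsin D and the most abundant transcript of the 36 in mutant, was listed at 244 RPKM in mutant and 69.2 RPKM in control (3.53-fold, implied 95% interval from 1.3 to 9.57, p = 0.013, adjusted p = 0.184 in the authors' deposited table). Although its fold was above that of Hexa, its implied error was larger, at 0.73 against 0.51 on the log2 scale. Ctsk, the collagen-degrading cysteine protease known from osteoclasts and fibroblasts, was listed at 8.21 RPKM in mutant and 2.95 RPKM in control (2.79-fold in the authors' deposited table, interval from 1.35 to 5.76, p = 0.00568, adjusted p = 0.110).

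The next 4 cathepsins by level stood between 1.92-fold and 2.12-fold in the authors' deposited table, and none was called. Ctsl, cathepsin L, whose loss causes dilated cardiomyopathy in mice, was listed at 66.5 RPKM in mutant and 31.3 RPKM in control (2.12-fold in the authors' deposited table, implied 95% interval from 0.999 to 4.52, p = 0.0503, adjusted p = 0.397). Ctsb, cathepsin B, was listed at 65.1 RPKM in mutant and 31.1 RPKM in control. Ctsa, a carboxypeptidase that also shields the sialidase Neu1 from breakdown, was listed at 32.5 RPKM in mutant and 16.9 RPKM in control, and Ctsz, a carboxypeptidase of the cysteine class, at 29.9 RPKM in mutant and 15.4 RPKM in control. Ctsf stood at 7.61 RPKM in mutant and 4.46 RPKM in control, and Ctsh, an aminopeptidase, at 3.05 RPKM in mutant and 2.10 RPKM in control. Some 50-base stretches of these genes also occur in transcripts of other genes of a later annotation. The share was 32.4% for Ctsd, 26.3% for Ctsl, 12.1% for Ctsb and 11.6% for Ctsa, so their levels may hold reads of such other genes. For Ctsb the only such gene was Fdft1, listed at 2.23 RPKM in mutant and 2.31 RPKM in control. Of 4 cathepsins outside the 36, Ctss is given with the other hydrolases and the remaining 3 were near level or listed lower in mutant. Ctsc stood at 2.48 RPKM in mutant and 2.37 RPKM in control, Ctso at 2.28 RPKM in mutant and 2.72 RPKM in control, and Ctsw at 0.0749 RPKM in mutant and 0.142 RPKM in control. The summed level of the 8 member cathepsins was 456.9 RPKM in mutant and 173.4 RPKM in control, a ratio of 2.63, and without Ctsd it was 212.9 RPKM in mutant and 104.2 RPKM in control, a ratio of 2.04.

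Hexa was the gene called. It codes for the alpha subunit of beta-hexosaminidase A, which trims the ganglioside GM2 and whose loss causes Tay-Sachs disease in humans. Hexa (chromosome 9, 59387474 to 59412914 in mm9) rose to 21.1 RPKM in mutant, against 6.12 RPKM in control, 3.44-fold in the authors' deposited table (implied 95% interval from 1.72 to 6.86, p = 0.000465, adjusted p = 0.0191). In a later annotation 10.6% of its 50-base stretches also lie in transcripts of its neighbour Tmem202, which was listed at 0.159 RPKM in mutant and 0.0296 RPKM in control.

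The other 4 glycosidases were all listed higher in mutant without a call. Gaa, the enzyme that frees glucose from lysosomal glycogen, was listed at 9 RPKM in mutant and 5.62 RPKM in control (1.6-fold, p = 0.176, adjusted p = 0.694 in the authors' deposited table). Neu1, the lysosomal sialidase, was listed at 4.29 RPKM in mutant and 2.56 RPKM in control, and Gusb, beta-glucuronidase, at 4.07 RPKM in mutant and 3.54 RPKM in control. Gla, alpha-galactosidase A, was low, at 0.660 RPKM in mutant and 0.302 RPKM in control. By the worth of 1 read used above, these levels stand for about 320 reads in mutant and 56 in control. As 1 read is worth less RPKM in mutant, the reads differ more than the levels. The median log2 fold change of the 5 glycosidases was 0.75.

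Soluble cofactors carry lipid rather than cut it. Npc2, which hands cholesterol to the membrane protein Npc1, was listed at 15.3 RPKM in mutant and 6.13 RPKM in control (2.49-fold, implied 95% interval from 1.24 to 5, p = 0.0103, adjusted p = 0.162 in the authors' deposited table). Psap, the precursor of the saposins that present glycolipids to the hydrolases, was listed at 99.5 RPKM in mutant and 73.9 RPKM in control (1.35-fold in the authors' deposited table, implied 95% interval from 0.552 to 3.28, p = 0.514). Neither was called.

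Membrane proteins had the lowest median log2 fold change of the roles, 0.42, over 4 genes. Lamp1, a main glycoprotein of the lysosomal membrane, was listed at 73.3 RPKM in mutant and 45.0 RPKM in control (1.63-fold, p = 0.231, adjusted p = 0.767 in the authors' deposited table). Lamp2, which autophagosomes need to clear their cargo in heart muscle, stood at 12.9 RPKM in mutant and 10.7 RPKM in control (1.21-fold, p = 0.615, adjusted p = 1 in the authors' deposited table). Mcoln1, the calcium channel TRPML1, was listed at 3.97 RPKM in mutant and 2.68 RPKM in control. Npc1, which exports cholesterol, was listed at 2.36 RPKM in mutant and 3.29 RPKM in control (0.718-fold in the authors' deposited table, implied 95% interval from 0.358 to 1.44, p = 0.351), whereas its soluble partner Npc2 was listed higher in mutant. A row on the other strand of Npc1, 3110002H16Rik, stood at 2.27 RPKM in mutant and 4.10 RPKM in control.

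Set side by side, the hydrolases had a median log2 fold change of 0.95 with 13 of 13 listed higher in mutant, the pump subunits 0.56 with 11 of 15, and the membrane proteins 0.42 with 3 of 4. The summed level was 2.59 times the control for the hydrolases, 1.53 times for the pump subunits and 1.5 times for the membrane proteins. Ctsd alone held 244 of the 496.0 RPKM of hydrolases in mutant and 69.2 of 191.6 RPKM in control. The members were chosen with earlier results known. The 40 other hydrolases, 32 of them listed higher, had a median of 0.37 and a summed ratio of 1.47, both below the pump subunits. The 30 other membrane proteins and cofactors had a median of 0.335 and a summed ratio of 1.29. Of 8 tested pump isoform and accessory genes outside the members, 4 were listed higher. These differences between roles and lists were not tested, because genes are not replicates of a condition.

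**Figure D3:**
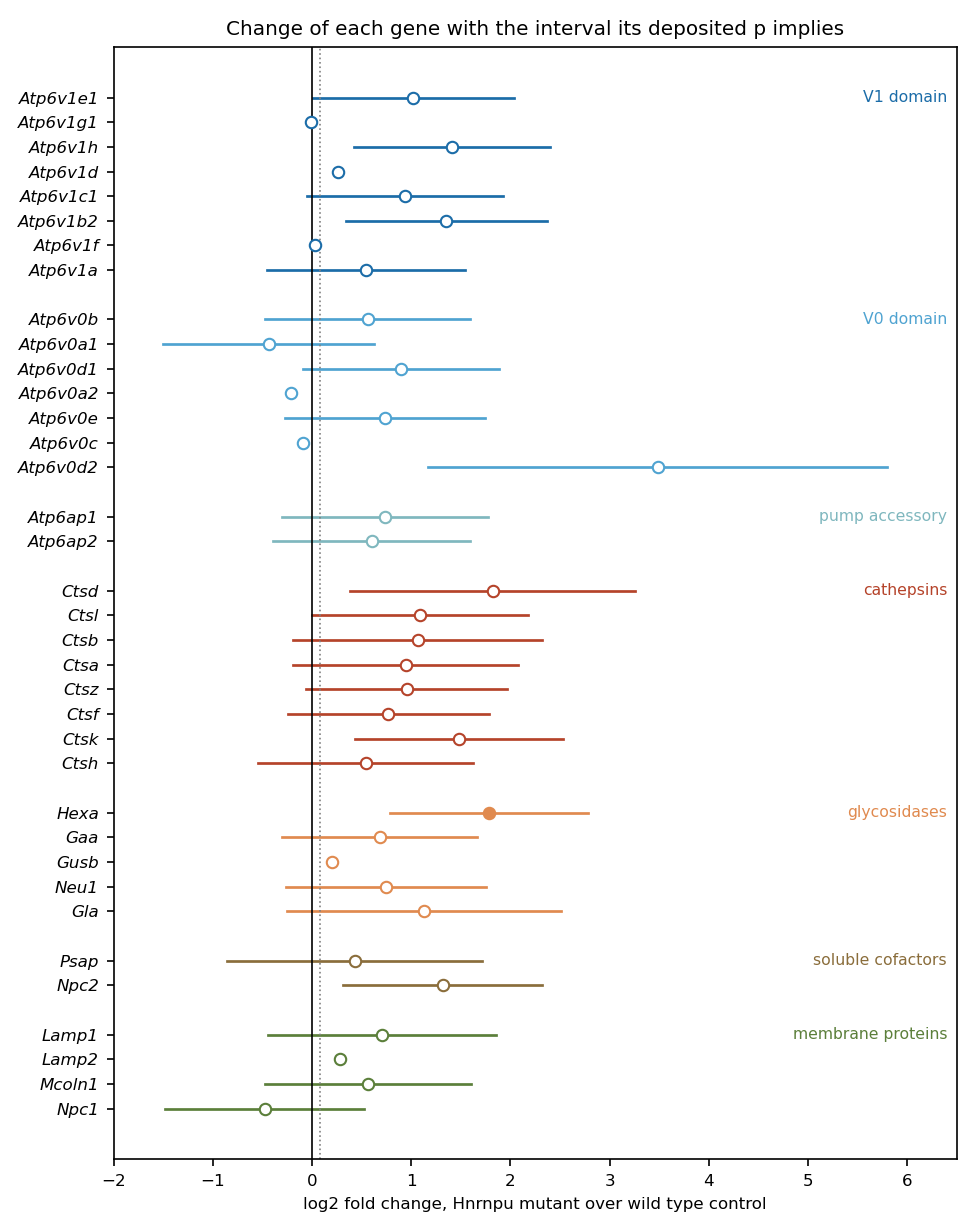
Log2 fold change, mutant over control, of the 36 genes by role, with bars for the 95% interval that the deposited p implies (drawn where the log2 fold change is at least 0.3 in size) and a filled point for a gene that was called. Hexa has the filled point at 1.78, all 13 hydrolases lie above 0, and the dotted line marks the median of rows with a mean of at least 1 RPKM, 0.08.

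The 2 factors named with the members, which are known to raise lysosomal genes, were not called. Tfeb, from the row Tcfeb, was listed at 4.49 RPKM in mutant and 4.20 RPKM in control (1.07-fold, p = 0.854 in the authors' deposited table). Tfe3, from the row Tcfe3, was listed at 1.62 RPKM in mutant and 1.28 RPKM in control (1.27-fold in the authors' deposited table, implied 95% interval from 0.621 to 2.58, p = 0.517). Their activity is set largely by phosphorylation and entry into the nucleus, which transcript levels do not show. Mitf, a relative that binds the same motif, was listed at 2.05 RPKM in mutant and 4.78 RPKM in control (0.430-fold, p = 0.0199, adjusted p = 0.239 in the authors' deposited table). Zkscan3, described in human cells as a repressor of lysosomal and autophagy genes, was listed at 3.34 RPKM in mutant and 10 RPKM in control (0.332-fold in the authors' deposited table, interval from 0.162 to 0.680, p = 0.00258, adjusted p = 0.0642). In the list of 16 related factors and proteins that dock mTORC1 at the lysosome, which holds Mitf and Zkscan3, 6 were listed higher and 10 lower in mutant. None was called by the authors' test, and 2, Mitf and Zkscan3, had an unadjusted p below 0.05. The small GTPase Rraga was listed at 21.5 RPKM in mutant and 11.2 RPKM in control, and Rragb at 0.601 RPKM in mutant and 0.228 RPKM in control.

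Because TFEB and TFE3 bind a palindrome with the core TCACGTGA, promoters of the members were searched for it. RefSeq promoter windows (build GRCm38.p6, 250 bases before to 50 bases after a gene's start) were at hand for 27 of the 36 members. Of their 31 windows, 25 had bases after the start that also lie in a transcript of the gene. The motif was present in 7 of the 27 members (25.9%), against 1.12% of the 27025 genes in the same table. It reads the same on both strands, and it holds the E-box CACGTG, which was present in 12 of the 27 (44.4%), against 8.09% of all genes. The palindrome is known from promoters of pump and lysosomal genes, so its high share in such a list is no result of these ventricles. The 9 matches are printed because they show how the same core recurs in pump, hydrolase and channel genes. Each stretch of 30 bases runs 5′ to 3′ on the gene's strand, with the motif in capitals, and its position is counted from the start site.
Atp6v1a, minus strand, chr16:44139373-44139402, motif from -132: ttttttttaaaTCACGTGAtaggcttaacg
Atp6v0d1, minus strand, chr8:105566050-105566079, motif from -4: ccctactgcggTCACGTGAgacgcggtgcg
Atp6v0e, plus strand, chr17:26676387-26676416, motif from 3: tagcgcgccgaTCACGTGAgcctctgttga
Ctsd, minus strand, chr7:142387908-142387937, motif from -99: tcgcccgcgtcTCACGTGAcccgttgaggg
Ctsa, plus strand, chr2:164833749-164833778, motif from -13: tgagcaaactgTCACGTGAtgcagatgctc
Ctsa, plus strand, chr2:164833766-164833795, motif from 5: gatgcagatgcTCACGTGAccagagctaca
Gla, minus strand, chr X from 134601215 to 134601244, motif from -228: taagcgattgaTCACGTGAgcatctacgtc
Gla, minus strand, chr X from 134601182 to 134601211, motif from -195: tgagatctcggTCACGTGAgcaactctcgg
Mcoln1, plus strand, chr8:3500462-3500491, motif from -46: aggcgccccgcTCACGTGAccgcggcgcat

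All 7 members with the palindrome were listed higher in mutant, with log2 fold changes from 0.54 to 1.82 and a median of 0.90. The 20 members with a window and no match had a median of 0.69 and ran from -0.44 to 1.78. The ranges overlapped over most of their length, and Hexa, the gene that was called, had no match in its window. The promoter of Lamp1 held the shorter E-box at 4 places and no full palindrome. A match is a description of letters in a window and was not tested as a binding site here.

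Of 40 other lysosomal hydrolases, 32 were listed higher and 8 lower in mutant, with a median log2 fold change of 0.37. Of the 40, 2 rose, where 2.03% of all tested rows were called higher. Ctss, cathepsin S of antigen-presenting cells, rose to 12.2 RPKM in mutant, against 3.17 RPKM in control (3.84-fold, adjusted p = 0.0144 in the authors' deposited table). Man2b2, an alpha-mannosidase, rose to 5.42 RPKM in mutant, against 1.62 RPKM in control (3.35-fold in the authors' deposited table, adjusted p = 0.0292). Fuca1, alpha-fucosidase, was listed at 6.78 RPKM in mutant and 3.18 RPKM in control (p = 0.0352 in the authors' deposited table), without a call.

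Of 30 other membrane proteins and cofactors, 20 were listed higher and 10 lower in mutant, with a median of 0.34, and 3 rose, where 2.03% of all tested rows were called higher. Scarb2, the lysosomal membrane protein LIMP-2, rose to 20.8 RPKM in mutant, against 6.66 RPKM in control (3.12-fold in the authors' deposited table, adjusted p = 0.0386). Laptm5, a lysosomal protein of blood cells, rose to 5.98 RPKM in mutant, against 1.77 RPKM in control (3.37-fold in the authors' deposited table, adjusted p = 0.0267). Gpnmb, a glycoprotein of macrophages with lipid-loaded lysosomes, rose to 0.965 RPKM in mutant, against 0.0434 RPKM in control (22.2-fold in the authors' deposited table, adjusted p = 1.97e-06). Tmem192 was listed at 7.11 RPKM in mutant and 2.53 RPKM in control (p = 0.00814, adjusted p = 0.141 in the authors' deposited table), without a call. Of 19 genes that sort enzymes to the lysosome, 11 were listed higher and 8 lower in mutant, with a median of 0.26. None was called by the authors' test, and 2 had an unadjusted p below 0.05, Sumf1 and Vps35, both higher in mutant. Over all tested rows 6.4% were higher at that level. Sumf1, which activates the sulfatases, stood at 5.18 RPKM in mutant and 2.54 RPKM in control, and Gnptab, which makes the mannose 6-phosphate tag, at 2.61 RPKM in mutant and 4.78 RPKM in control.

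Lysosomal genes are expressed in all cells, and several are abundant in macrophages and fibroblasts, so markers of the cells of the ventricle are given beside them. Of 17 macrophage markers, 16 were listed higher in mutant, none was at 0, and their summed level was 248.0 RPKM in mutant and 89.68 RPKM in control. Among them Lyz2, lysozyme, rose to 90.5 RPKM in mutant, against 18.4 RPKM in control (adjusted p = 0.00209), and Lgals3, galectin-3, to 3.85 RPKM in mutant, against 0.420 RPKM in control (adjusted p = 8.05e-05 in the authors' deposited table). Lyz2 held the largest part of the difference between the sums. Other markers differed less in fold and were not called. C1qb had the lowest p among these, at 42.4 RPKM in mutant and 16.1 RPKM in control (p = 0.0072, adjusted p = 0.129 in the authors' deposited table). C1qa stood at 40.1 RPKM in mutant and 15.7 RPKM in control, and C1qc at 22.6 RPKM in mutant and 9.68 RPKM in control. Csf1r stood at 7.67 RPKM in mutant and 6.01 RPKM in control, and Cx3cr1 at 2.63 RPKM in mutant and 1.88 RPKM in control. Ptprc, the marker listed lower, stood at 0.906 RPKM in mutant and 1.31 RPKM in control. By the authors' test, 6 of the 17 had an unadjusted p below 0.05, all higher in mutant. Over all tested rows 52.8% were listed higher in mutant, 2.03% were called higher and 6.4% were higher at an unadjusted p below 0.05. Cd68, which is also in the list of lysosomal membrane proteins, was listed at 3.87 RPKM in mutant and 2.46 RPKM in control without a call. Of 12 fibroblast markers, 8 were listed higher in mutant with none called by the authors' test and 3 at an unadjusted p below 0.05, and their sum was 1268 RPKM in mutant and 853.3 RPKM in control. The part of these cells in the higher lysosomal levels was not tested, and in whole ventricles more cells of a type and more RNA per cell cannot be told apart.

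Of 10 osteoclast-type markers, read because Ctsk, Atp6v0d2 and Tcirg1 are known from such cells, 8 were listed higher in mutant with none called by the authors' test and 0 at an unadjusted p below 0.05, at a summed level of 5.484 RPKM in mutant and 4.109 RPKM in control. Acp5, the tartrate-resistant acid phosphatase, which is also among the other hydrolases, had the lowest p, at 0.842 RPKM in mutant and 0.312 RPKM in control (p = 0.0769 in the authors' deposited table). Cardiomyocyte markers were present at a summed level of 11310 RPKM in mutant and 11050 RPKM in control, with 2 of 12 listed higher in mutant, none called by the authors' test and 1 lower at an unadjusted p below 0.05. Actc1, cardiac actin, at 4530 RPKM in mutant and 2380 RPKM in control, held much of that sum, and the other 11 markers summed to 6775 RPKM in mutant and 8670 RPKM in control. Of 10 endothelial markers, 3 were listed higher and 7 lower in mutant, and their sum was 184.5 RPKM in mutant and 218.2 RPKM in control. Of the 3 higher, 1 was called (Vwf, at 7.79 RPKM in mutant and 1.54 RPKM in control, adjusted p = 0.00176 in the authors' deposited table). Over all tested rows 2.03% were called higher. The 7 lower, none of them called, included Kdr at 8.79 RPKM in mutant and 15.3 RPKM in control, and Cd34 at 42.0 RPKM in mutant and 60.6 RPKM in control. The atria had been cut away before extraction, and of 5 atrial markers 2 were listed higher and 3 lower in mutant. Nppa, also a stress gene of the ventricle, rose to 4370 RPKM in mutant, against 58.2 RPKM in control, and Myl4 stood at 6.85 RPKM in mutant and 4.28 RPKM in control. Sln stood at 1.66 RPKM in mutant and 6.46 RPKM in control, Myl7 at 17.7 RPKM in mutant and 27.9 RPKM in control, and Bmp10 was listed at 0 in mutant and 0.0457 RPKM in control.

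**Figure D4:**
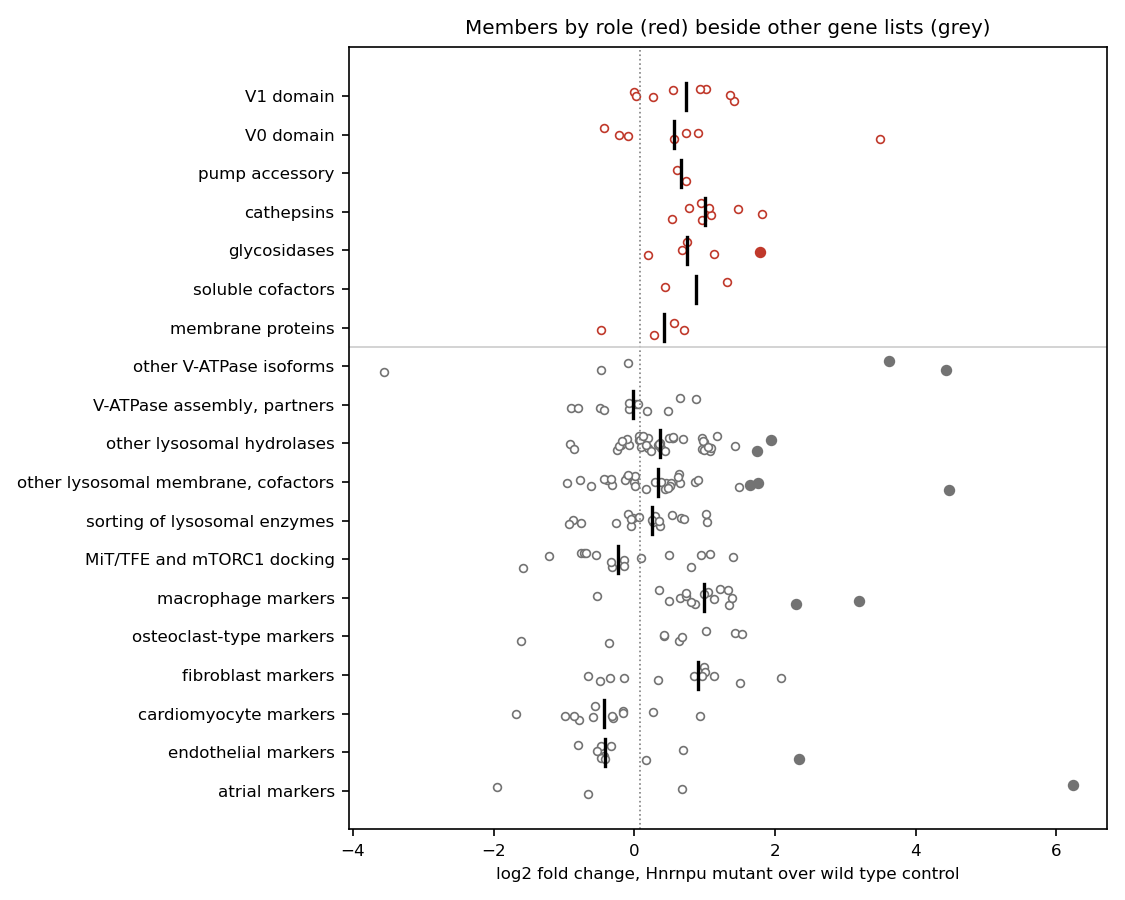
Log2 fold change, mutant over control, of each gene by role (red) and of the other gene lists (grey), with filled points for genes that were called, a black bar for the median (left out for lists with a gene at 0 in 1 group, whose genes at 0 are not drawn) and a dotted line at 0.08, the median of rows with a mean of at least 1 RPKM. The cathepsins, at a median of 1.01, and the macrophage markers, at 0.99, lie right of the line, and the cardiomyocyte markers, at -0.44, lie left of it.

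Sqstm1 and Gabarapl1, autophagy genes that were named after their values had been seen, rose in the same ventricles. Sqstm1, which codes for the cargo receptor p62, rose to 95.9 RPKM in mutant, against 22.0 RPKM in control (4.36-fold, adjusted p = 0.0262 in the authors' deposited table). Gabarapl1, a protein of the autophagosome membrane, rose to 27.4 RPKM in mutant, against 5.72 RPKM in control (4.80-fold in the authors' deposited table, adjusted p = 0.00105). Both changes were larger in fold than that of any member with a mean of at least 1 RPKM, without a test of that difference.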

How the data were processed

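Ventricles of 2 Hnrnpu mutant and 2 wild type mice were compared by RNA sequencing. Per the file headers, the deposited table holds RPKM values, 1 per group by the authors, the fold (ratio) of mutant over control, its log2 value, and a p-value with its adjusted p-value. Bowtie 0.12.9, DESeq and mm9 appear in the submitters' processing notes, with no role. No source used here names the annotation, the counter, the use of strand or the handling of reads with several matches. P-values refer only to these samples, which are not stated to be separate litters. The sources used here do not say how the test set the spread of each gene. An implied error or interval is therefore not taken as a gene's own spread between animals.

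With no value per sample no model could be fitted, and calls are the authors' adjusted p below 0.05 over 24454 tested rows. Benjamini-Hochberg values recomputed here, by steps tested on simulated data, differed from the deposited ones by at most 0.593%. Implied errors are the deposited log2 fold divided by the normal score of its p. Depth is not stated. The smallest step of RPKM times length in kilobases among short RNA genes, 0.00654 in mutant and 0.0171 in control, was taken as 1 read. By that measure the mutant libraries were deeper, and low transcripts were more readily seen in them. Shared sequence means stretches of 50 bases in GENCODE M21 transcripts of other genes.

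Members and lists were chosen with earlier results of these data known. Full values are given for members with p below 0.05, the 2 most abundant and the most changed of each role, and called genes of other lists with some of the lowest p. Hnrnpu, Sqstm1, Gabarapl1, Gapdh, Tcirg1 and overlapping rows were named outside that rule. Of 190 list genes, 9 were matched through older symbols. Python 3.11.15, pandas 2.3.3 and scipy 1.17.1 were used.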

Additional observations from a re-analysis of the deposited data

How the results depend on the processing

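The count of members called was 1 under the main rule and also when p-values were adjusted over rows with a mean of at least 1 RPKM, where Hexa had an adjusted p of 0.0126. It was 2 at an adjusted p below 0.1 (Hexa and Atp6v0d2), 8 at an unadjusted p below 0.05, and 0 when a change of at least 4-fold was also asked for. It was also 0 among the 28 members with under 10% of 50-base stretches shared with other genes, a setting added after the data were seen that leaves out Hexa, at 10.6%. The median log2 fold change of the members ran from 0.58 (pseudocount 1) to 0.74, and the lowest median of any role under any alternative was 0.26 (V0 domain, pseudocount 1). Centring on the median of rows at 1 RPKM or more in both groups shifted values by -0.09 and scaling to equal sums by less than 0.01, and 30 and 31 members were then above 0. The sign changed for 1 member in 1 setting, Atp6v1f, at -0.06 when centred. With a pseudocount of 1 the log2 fold change of Atp6v0d2 was 0.26 and that of Gla 0.35. No paired analysis was possible because the table holds no value per sample, and leaving out single samples was not run for the same reason. Depth limits Atp6v0d2 and Atp6v0a4 in control, and no list gave a test of its own.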
